A study of Mus musculus with 22 samples.

Results

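Slc24a4 and 9 other genes for calcium transporters, 9 of the plasma membrane and 1 of mitochondria, were followed through 22 RNA libraries of mouse prefrontal cortex (PFC). The members were the rows of the count table whose Ensembl identifiers map to Slc24a2, Slc24a3, Slc24a4, Slc8a1, Slc8a2, Slc8a3, Slc8b1, Atp2b1, Atp2b2 and Atp2b4, which are 10 of 39056 genes, and all 10 were among the 14072 genes that passed the filter on low counts. Slc24a4 was selected on its difference between treated and Control mice in these same libraries, so its values in those contrasts are given as a description with no test. The other 9 genes were chosen because they belong to the same families or do the same task.

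The 22 libraries came from 11 male mice of 8 to 12 weeks on a C57BL/6J background, all of which carried tetO-EGFP/Rpl10a together with CaMKIIα-tTA, so that cells with an active CaMKIIα promoter, and no others, were meant to hold ribosomes tagged with EGFP. Control mice (n = 3) had saline injected intraperitoneally, EtOH mice (n = 4) had ethanol to 2 g/kg per day, and EtOH + ABT-888 mice (n = 4) had the same ethanol with the PARP inhibitor ABT-888 at 25 mg/kg added on the last day. Injections were given 2 times a day for 4 days, and the PFC was taken 2 h after the last one. Each mouse gave a TRAP library, of RNA pulled down with the tagged ribosomes, and a total-RNA (INPUT) library of the unsorted lysate, which holds all cell types. TRAP libraries held between 6570957 and 22002618 counted reads and total-RNA libraries between 22132534 and 32421392.

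A neuron that fires admits calcium through channels and must remove it afterwards. Plasma membrane calcium ATPases (PMCA, the Atp2b genes) spend ATP to expel calcium with high affinity, and sodium-calcium exchangers (NCX, the Slc8a genes) use the inward sodium gradient to expel it at higher capacity. Potassium-dependent exchangers (NCKX, the Slc24a genes) use the outward potassium gradient as well, and Slc8b1 (NCLX) carries calcium out of the mitochondrial matrix. Slc24a4 encodes NCKX4, an exchanger known from olfactory neurons and enamel-forming cells.

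Slc24a4 lies on mm10 chromosome 12, from 102128733 to 102267091 on the plus strand (ENSMUSG00000041771.13). The 250 bases upstream of its RefSeq start (GRCm38.p6, chr12:102128477-102128726, plus strand) are shown because Slc24a4 was the one member whose treated libraries stood apart from Control in both pools and with both treatments.

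Slc24a4: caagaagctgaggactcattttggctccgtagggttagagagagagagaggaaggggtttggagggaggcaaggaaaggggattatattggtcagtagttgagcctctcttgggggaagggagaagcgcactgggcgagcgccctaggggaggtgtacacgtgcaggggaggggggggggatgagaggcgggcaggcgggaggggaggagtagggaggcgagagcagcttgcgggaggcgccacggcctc

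Its GC content was 62.8%, against a median of 52.4% over 32851 upstream windows of the same length, and it held 11 CpG. None of 3 short motifs searched on both strands was found in these letters: the cAMP response element TGACGTCA, which 1.55% of all windows hold, the short glucocorticoid receptor motif AGAACA, which 16.1% hold, and the GC box GGGCGG, which 32.7% hold. RefSeq windows were matched for 9 of the 10 members, and Slc8b1 had no entry. Slc24a3, the nearest relative of Slc24a4 among the members, had 2 windows, one with a GC content of 80.8%, 35 CpG and 4 GC boxes and another with 63.6%, 14 CpG and 0 GC boxes.

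In TRAP libraries of Control mice, Slc24a4 stood at 143, 135 and 132 CPM (counts of the gene scaled to library size, with TMM factors). The 4 EtOH_TRAP libraries had 286, 323, 346 and 373 CPM. The 4 EtOH + ABT-888_TRAP libraries had 242, 294, 363 and 309 CPM. Every treated library was above every Control library, and the EtOH and EtOH + ABT-888 libraries overlapped each other. The means were 137 ± 5.57 CPM (SD, n = 3) in Control, 332 ± 36.5 (n = 4) in EtOH and 302 ± 49.6 (n = 4) in EtOH + ABT-888. The fitted log2 fold change against Control was 1.30 (SE 0.14) with EtOH, a fold of 2.46, and 1.16 (SE 0.17) with EtOH + ABT-888, a fold of 2.23.

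Total-RNA gave the same ordering at a lower level. Control libraries had 41.3, 44.3 and 40.5 CPM of Slc24a4. EtOH libraries had 80.3, 106, 67.1 and 91.8 CPM, and EtOH + ABT-888 libraries had 71.4, 81.4, 77.8 and 78.1 CPM. Again no treated library reached down to a Control library, and the EtOH libraries were spread more widely (SD 16.7) than those with ABT-888 (SD 4.18). The log2 fold change of Slc24a4 was 1.04 (SE 0.14) with EtOH and 0.88 (SE 0.11) with EtOH + ABT-888. Both treated groups were compared with the same 3 Control mice, so these differences share their baseline. In bulk libraries, fewer cells of a type and less RNA per cell cannot be told apart, and the same holds for more of either.

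**Figure D1:**
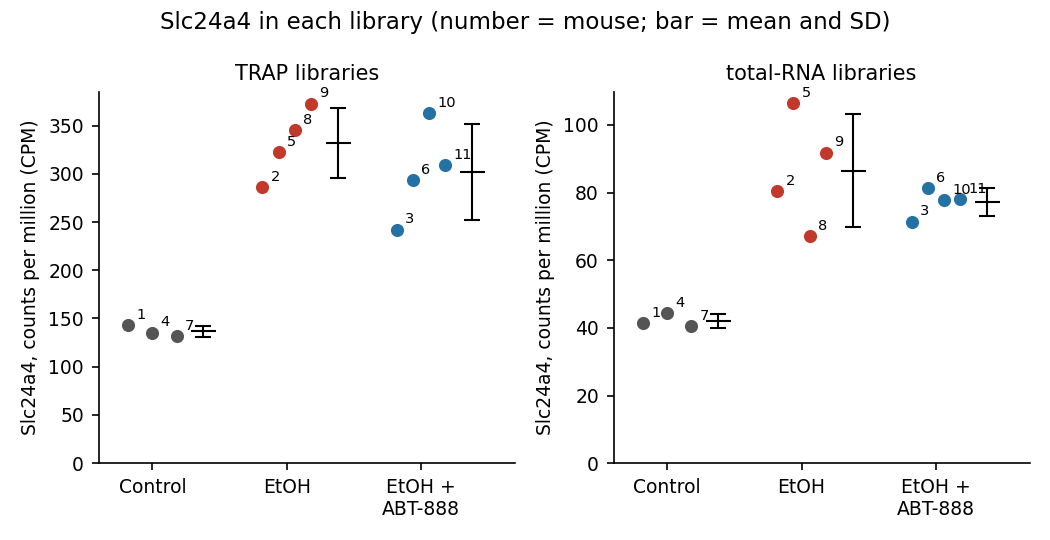
Slc24a4 in each library, in CPM (y axis) for TRAP (left) and total-RNA (right) libraries of the 3 treatments. Points are libraries numbered by mouse, and bars are the mean and SD. Control libraries lie between 132 and 143 CPM in TRAP and between 40.5 and 44.3 CPM in total-RNA, below all treated libraries of the same kind.

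The EtOH + ABT-888 libraries were also set against the EtOH libraries. Slc24a4 was chosen for values of these same treated libraries against Control, so its difference here is a description with no test. The log2 difference between EtOH + ABT-888 and EtOH was -0.14 in TRAP (95% interval -0.47 to 0.19) and -0.16 in total-RNA (-0.44 to 0.11). Both intervals include no change, and they admit a reduction of up to 0.47 on the log2 scale in TRAP and 0.44 in total-RNA. None of the other 9 members passed edgeR's quasi-likelihood test in either contrast, where the share of all genes called was 0% in both. With edgeR's unadjusted p under 0.05 the count among the other 9 members was also 0 in each, and DESeq2 and exactTest called 0 as well.

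The next question was how each transporter is divided between tagged ribosomes and the whole tissue. All 10 members passed the test in Control, where 59.9% of all genes tested did, with 5 higher in TRAP and 5 lower. The filter on low counts kept Slc8b1 only through its total-RNA reads, so nothing is read from its part in the counts of this paragraph. In EtOH the count was again 10 (50.7% of all genes). In EtOH + ABT-888 it was 9 (41% of all genes), with Slc24a2 missing at an adjusted p of 0.134, and 10 with the mouse as a replicate block, where Slc24a2 had a log2 difference of -0.48 and an adjusted p of 0.00478. The median log2 difference of the members, TRAP against total-RNA, was 0.13 in Control, -0.05 in EtOH and 0.09 in EtOH + ABT-888, beside 0.02, 0.03 and 0.05 over all genes. Each member kept 1 direction in all 11 mice.

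Slc24a4 had the highest ratio of the members in each treatment. Its log2 difference between TRAP and total-RNA was 1.68 (SE 0.09, adjusted p = 1.34e-07) in Control, 1.92 (SE 0.16, adjusted p = 5.67e-06) in EtOH and 1.97 (SE 0.15, adjusted p = 5.38e-06) in EtOH + ABT-888, by edgeR's quasi-likelihood test. Mouse by mouse the log2 ratio of Slc24a4 was 1.61, 1.70 and 1.79 in Control taken from lowest to highest, between 1.60 and 2.36 in EtOH and between 1.76 and 2.22 in EtOH + ABT-888. The ratios of the 3 treatments overlapped. The change of the ratio with treatment, the interaction in a fit over all 22 libraries, uses the contrast on which the gene was chosen and is given without a test: 0.24 (SE 0.20) on the log2 scale with EtOH and 0.27 (SE 0.20) with EtOH + ABT-888. For the other 9 members, 0 passed in either interaction (0.0213% of all genes with EtOH and 0% with EtOH + ABT-888 were called). At an unadjusted p under 0.05 edgeR counted 0 of them in both, and DESeq2 called 0 after adjustment.

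**Figure D2:**
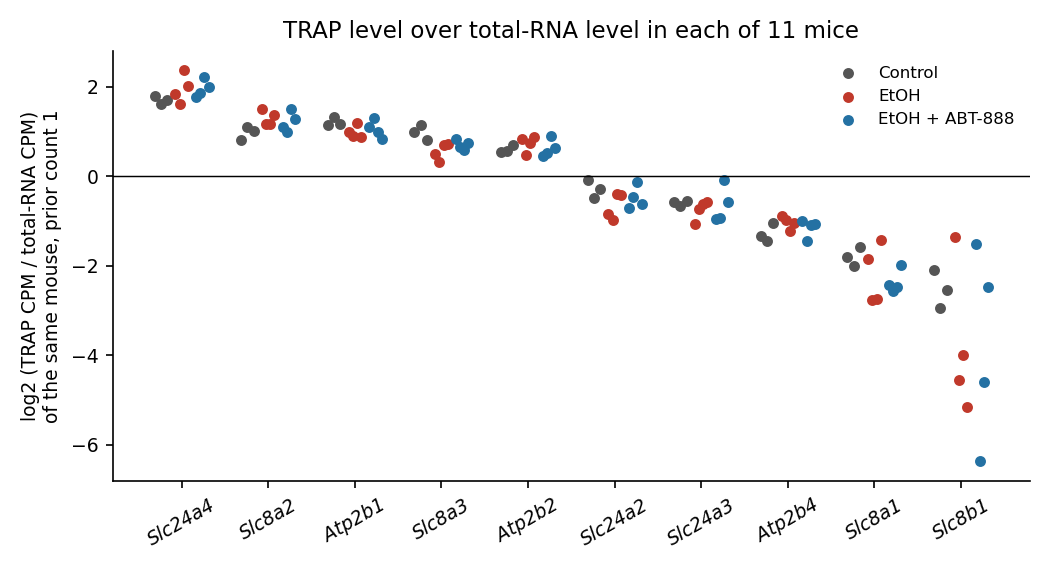
Log2 ratio of TRAP CPM to total-RNA CPM of the same mouse (y axis) for each transporter (x axis), with a prior count of 1. Points are the 11 mice, coloured by treatment. Slc24a4, Slc8a2, Atp2b1, Slc8a3 and Atp2b2 lie above 0 in all 11 mice and the other 5 below 0, and Slc8b1, with 0 to 16 reads per TRAP library, is the most widely spread.

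The cells behind the TRAP libraries were checked against 7 marker lists of 6 genes each. Every list had its 6 genes tested. Between TRAP and total-RNA in Control, 29.5% of all genes were called higher and 30.4% lower. Astrocyte, oligodendrocyte, microglia and endothelial markers were lower in TRAP than in total-RNA of Control mice in 6 of 6 genes each, and their summed CPM in TRAP was 0.0968, 0.167, 0.100 and 0.127 times that of total-RNA (mean over 3 mice). The neuronal markers went partly against the label of cortical excitatory neurons. Of the excitatory markers 4 of 6 were lower in TRAP and Nrgn was higher (1.20, adjusted p = 2.38e-05), and their summed CPM was 1.18 times that of total-RNA (1.14 to 1.23 times in single mice). Camk2a, named after its values were seen because its promoter drives the tag, was at 1880 ± 148 CPM (SD, n = 3) in TRAP and 2090 ± 244 in total-RNA (log2 difference -0.17, adjusted p = 0.203). In preliminary TRAP experiments, the study reported CamKIIα and Egfp to be higher in TRAP samples than in total-RNA, unlike Camk2a in these libraries. Of the inhibitory markers 3 were higher and 1 lower, with a summed CPM 2.31 times that of total-RNA (2.25 to 2.35 times), and all 6 striatal projection neuron markers were higher, with a summed CPM 7.94 times that of total-RNA (6.74 to 9.10 times in single mice). The TRAP libraries are therefore named here by how they were made.

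Some of these markers also moved with treatment beside Slc24a4. Neurod6, a transcription factor of cortical excitatory neurons, fell in TRAP from 21.4 CPM in Control to 6.68 in EtOH (log2 fold change -1.68, adjusted p = 0.0116) and 6.39 in EtOH + ABT-888 (-1.73, adjusted p = 0.0354). It fell in total-RNA too, from 99.6 to 50.0 CPM (-0.99, adjusted p = 0.00159) and 57.1 CPM (-0.80, adjusted p = 0.0471). Of the 6 excitatory markers, EtOH mice had 1 lower in TRAP (2.47% of all genes were called lower there) and 3 lower in total-RNA (8.6%), and EtOH + ABT-888 mice had 2 lower in TRAP (0.291%) and 1 lower in total-RNA (0.0853%), with none rising. Among them was Nrgn, which encodes a postsynaptic calmodulin-binding protein (EtOH_total-RNA, -0.58, adjusted p = 0.0139). Summed excitatory markers ranged from 4860 to 6200 CPM in Control_TRAP, from 4240 to 5680 in EtOH_TRAP and from 4400 to 5780 in EtOH + ABT-888_TRAP, and from 4180 to 5080, 4060 to 4890 and 4380 to 5040 CPM in total-RNA. Their part in the change of Slc24a4 was not tested.

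Striatal projection neuron markers summed to between 6320 and 8170 CPM in Control_TRAP, between 6240 and 7810 in EtOH_TRAP and between 6520 and 8030 in EtOH + ABT-888_TRAP. In total-RNA the ranges were 809 to 1020, 975 to 1350 and 706 to 945 CPM. Drd2, a dopamine receptor, fell with EtOH in TRAP (-0.56, adjusted p = 0.0406), and Ppp1r1b, a phosphatase inhibitor of dopamine signalling, rose with EtOH in total-RNA (0.67, adjusted p = 0.00996). Those were the members of that list past the threshold in a comparison with Control. With EtOH, 5.24% of all genes were called in TRAP and 17.6% in total-RNA. With EtOH + ABT-888 none of the 6 passed in either kind of library, where 0.476% and 0.263% of all genes were called. Inhibitory markers ranged from 1820 to 1910, 1660 to 2290 and 1650 to 1960 CPM in the same 3 TRAP groups, overlapping throughout, and from 787 to 850, 918 to 1000 and 694 to 840 CPM in total-RNA, where Gad2, an enzyme of GABA synthesis, rose with EtOH (0.40, adjusted p = 0.0292). Microglia markers in total-RNA were 329 to 336 CPM in Control and lower in both treated groups. With EtOH they were at 129 to 191 CPM, and 5 of 6 genes fell, where 8.6% of all genes were called lower. With EtOH + ABT-888 they were at 130 to 272 CPM, and 0 of 6 passed edgeR's test, where 0.263% of all genes were called. The microglia genes with the smallest p were Cx3cr1 (-2.47), Tmem119 (-1.53) and P2ry12 (-2.35), and P2ry12 fell in EtOH_TRAP as well (-3.46, adjusted p = 0.0113). With EtOH in total-RNA the astrocyte marker Gfap rose (0.75) and Aqp4 fell (-0.41), the oligodendrocyte marker Mobp rose (0.79) and the endothelial markers Tek (-0.99) and Flt1 (-0.45) fell, and none of these 3 lists had a gene past the threshold in the other 3 comparisons. Summed oligodendrocyte markers nonetheless ranged from 342 to 436 CPM in Control_TRAP, from 319 to 719 in EtOH_TRAP and from 320 to 1440 in EtOH + ABT-888_TRAP, astrocyte markers from 68.0 to 119, 43.6 to 207 and 68.7 to 174 CPM, and endothelial markers from 6.36 to 12.1 CPM in Control_TRAP and up to 30.1 CPM in the treated groups. The part of these markers in the results on the transporters was not tested either.

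Among the potassium-dependent exchangers, Slc24a2 (NCKX2, the main form in brain neurons) had the highest mean level in each group. In single EtOH_TRAP libraries Slc24a4 was above it per kilobase of exon, at 63.35 against 56.85 CPM in mouse 2 and 71.33 against 70.59 in mouse 5. Per kilobase of exon Slc24a2 stood at 86.1 CPM in Control_TRAP and 105 CPM in Control_total-RNA, Slc24a4 at 30.2 and 9.30, and Slc24a3 (NCKX3) at 17.9 and 27.0. Of the summed level of these 3 genes per kilobase, Slc24a4 made up 22.6% ± 1.36 (SD, n = 3) in Control_TRAP, 43.2% ± 4.52 (n = 4) in EtOH_TRAP and 38.3% ± 3.66 (n = 4) in EtOH + ABT-888_TRAP. In total-RNA the share of Slc24a4 was 6.59% ± 0.17, 11.0% ± 1.93 and 10.1% ± 1.02. Slc24a2 made up 64.0%, 48.3% and 53.0% in the TRAP groups, and between 74.3% and 75.9% in each total-RNA group. The summed level of the 3 genes overlapped between treatments in TRAP, at 126 to 150 CPM per kilobase in Control, 132 to 209 in EtOH and 132 to 245 in EtOH + ABT-888. In total-RNA it was 133 to 147 in Control, 145 to 194 in EtOH and 150 to 196 in EtOH + ABT-888, so that the last did not overlap Control.

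**Figure D3:**
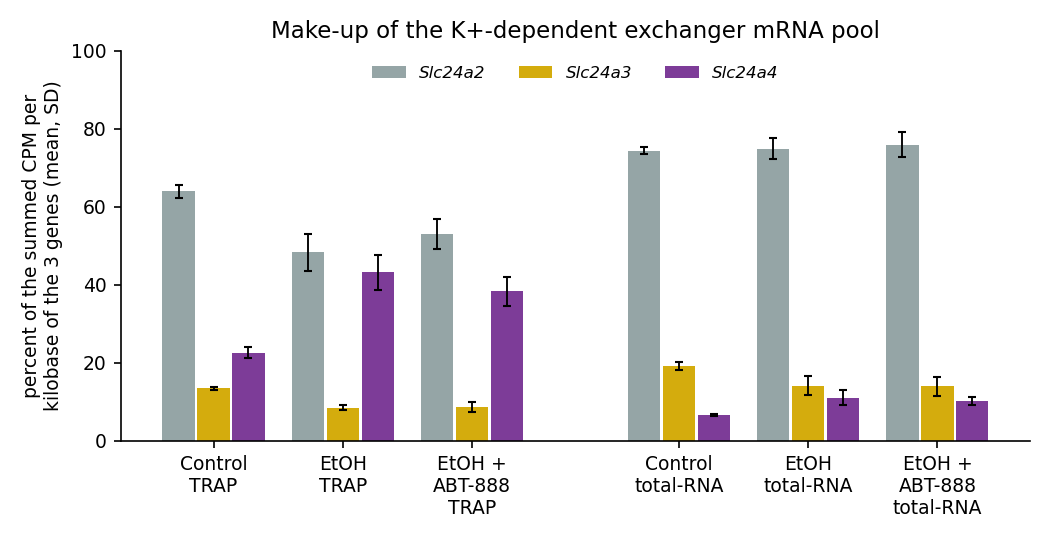
Share of each of the 3 potassium-dependent exchangers in their summed level, in percent of CPM per kilobase of exon (y axis), for the 6 groups (x axis). Bars are means and lines the SD over 3 Control or 4 treated mice. The share of Slc24a4 is 22.6% in Control_TRAP, 43.2% in EtOH_TRAP and 38.3% in EtOH + ABT-888_TRAP, and is at most 11.0% in total-RNA. The shares restate the contrast on which Slc24a4 was chosen.

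Slc24a2 itself did not pass edgeR's quasi-likelihood test against Control. In total-RNA its libraries had 1283, 1355 and 1206 CPM in Control, 1258, 1710, 1638 and 1816 in EtOH, and 1314, 1478, 1901 and 1631 in EtOH + ABT-888. Most treated libraries were above the Control range, but the groups overlapped, and the log2 fold change was 0.33 (SE 0.12, adjusted p = 0.0840) with EtOH and 0.31 (SE 0.13, adjusted p = 0.276) with EtOH + ABT-888. The EtOH difference passed without EtOH mouse 2 (0.43, adjusted p = 0.00809) and with no filter on low counts (adjusted p = 0.0303). In TRAP the spread was larger, from 694 to 1349 CPM in EtOH and from 800 to 1742 in EtOH + ABT-888 around a Control range of 963 to 1205, and the log2 fold changes were 0.00 and 0.17. Slc24a3 was lower in TRAP than in total-RNA in Control (-0.61, SE 0.09, adjusted p = 0.000185). Its log2 fold change against Control lay between -0.27 and -0.15 in the 4 comparisons, with adjusted p from 0.348 to 0.734. In EtOH + ABT-888 the difference of Slc24a3 between the pools (-0.60, adjusted p = 0.0257) was lost in 5 of 8 fits that left out 1 library (mouse 3, 6 or 11 of TRAP and 3 or 11 of total-RNA). That of Slc24a2 was lost in 4 of 6 such fits in Control (mouse 4 or 7 of TRAP and 1 or 4 of total-RNA) and in 4 of 8 in EtOH (mouse 5 of TRAP and 5, 8 or 9 of total-RNA). When all 22 libraries were fitted together, the Control difference of Slc24a2 (-0.29, adjusted p = 0.359) did not pass either.

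The other genes of these families add little. Atp2b3 (PMCA3) was at 150 to 184 CPM in TRAP group means and 164 to 170 in total-RNA, and it passed no comparison with Control. Slc24a1 and Slc24a5, exchangers of photoreceptors and of pigment cells, did not pass the filter on low counts.

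The 3 sodium-calcium exchangers differed in where their RNA was found. Slc8a2 (NCX2) was the most abundant per kilobase, at 108 CPM in Control_TRAP and 55.1 in Control_total-RNA, and was higher in TRAP (log2 difference 0.96, SE 0.13, adjusted p = 6.57e-05 in Control). Slc8a3 (NCX3) was higher in TRAP as well, at 0.97 (SE 0.13, adjusted p = 7.12e-05). Slc8a1 (NCX1, the form also known from heart) was lower in TRAP, at -1.81 (SE 0.11, adjusted p = 2.24e-07) in Control, -2.13 in EtOH and -2.36 in EtOH + ABT-888. By share of the summed level of the family, Slc8a2 made up 85.9% and Slc8a1 3.21% in Control_TRAP, against 72.7% and 18.2% in Control_total-RNA. Reads of Slc8a1 are less certain than those of the other members, because 296 bases of its exons also lie in an antisense transcript, AC122399.1, and the strand setting of the counting is not given in the sources used here.

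Slc8a1 lay below Control without overlap in all comparisons but EtOH in TRAP. How many of all genes lay apart in this way was not counted. In TRAP its 3 Control libraries had 77.5, 64.2 and 80.4 CPM. The EtOH + ABT-888_TRAP libraries had 40.3, 38.8, 42.5 and 53.0 CPM, and the EtOH_TRAP libraries had 52.5, 33.4, 34.5 and 78.8 CPM. All 4 libraries with ABT-888 were below Control, while mouse 9 of the EtOH group was within the Control range. The log2 fold change was -0.75 (SE 0.18, adjusted p = 0.0953) with EtOH + ABT-888 and -0.56 (SE 0.26, adjusted p = 0.217) with EtOH, so neither passed edgeR's quasi-likelihood test. Other tests differed on the first of these, with an adjusted p of 0.00815 by DESeq2 and 0.0166 by exactTest. Without mouse 9 the EtOH difference in TRAP was -0.88 with an adjusted p of 0.0146. In total-RNA, Slc8a1 was at 242 to 272 CPM in Control, 190 to 232 in EtOH and 211 to 237 in EtOH + ABT-888, below Control in every treated library, with adjusted p of 0.101 and 0.338.

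Slc8a2 and Slc8a3 did not pass edgeR's quasi-likelihood test against Control. Slc8a2 in total-RNA had 303, 318 and 248 CPM in Control and 211, 244, 240 and 234 CPM in EtOH. The EtOH libraries lay just below the lowest Control library, and the log2 fold change was -0.32 (SE 0.11, adjusted p = 0.0579). In TRAP the group means of Slc8a2 were 569, 570 and 551 CPM. Slc8a3 in TRAP had a mean of 73.2 ± 13.7 CPM (SD, n = 3) in Control, 55.8 ± 8.32 (n = 4) in EtOH and 56.0 ± 8.97 (n = 4) in EtOH + ABT-888, with overlapping libraries and adjusted p of 0.211 and 0.451.

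Slc8b1, the mitochondrial exchanger, was close to the limit of detection in TRAP. It had 6, 5 and 7 reads in Control_TRAP, 16, 1, 1 and 0 in EtOH_TRAP and 6, 0, 0 and 6 in EtOH + ABT-888_TRAP, and between 32 and 104 reads in each total-RNA library. Nearly all of its reads thus came from total-RNA, and in Control the log2 difference was -2.69 (SE 0.39, adjusted p = 0.00011). No difference between treatments was detectable for Slc8b1 at this depth, with standard errors of 1.21 and 1.12 in the TRAP comparisons with Control.

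A pair of plasma membrane pumps were the most abundant members in TRAP. Atp2b1 (PMCA1, the most widely expressed pump) stood at 227 CPM per kilobase in Control_TRAP and Atp2b2 (PMCA2, a fast pump of neurons and hair cells) at 176, while Atp2b4 (PMCA4) stood at 13.8. In Control_total-RNA the values were 97.9, 117 and 33.4. Atp2b1 (log2 difference 1.20, SE 0.09, adjusted p = 1.23e-06) and Atp2b2 (0.57, SE 0.12, adjusted p = 0.00177) were higher in TRAP of Control mice, and Atp2b4 was lower (-1.28, SE 0.11, adjusted p = 3.25e-06). In EtOH + ABT-888 the difference of Atp2b2 (0.62, adjusted p = 0.0157) was lost without total-RNA of mouse 6 or 11. The exon length used for Atp2b1 was 15218 bases, against 7130 for its longest transcript, and with the shorter length Atp2b1 stood at 485 CPM per kilobase in TRAP and 209 in total-RNA, first in both.

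Ordered by level per kilobase in Control_TRAP, the members ran Atp2b1, Atp2b2, Slc8a2, Slc24a2, Slc24a4, Slc24a3, Atp2b4, Slc8a3, Slc8a1 and Slc8b1. The libraries of Slc8a2 and Slc24a2 overlapped, as did those of Atp2b4 and Slc8a3. With this exon length the same order of means was found in EtOH_TRAP and EtOH + ABT-888_TRAP, where Slc24a4, at 73.4 and 66.8 CPM per kilobase, overlapped Slc24a2 above it. With the length of the longest transcript, Slc8a3 was above Atp2b4 in Control_TRAP and Slc24a2 above Slc8a2 in EtOH + ABT-888_TRAP, and Slc24a4 was 5th in each TRAP group by either length. In Control_total-RNA Slc24a4 was 8th of the 10 at 9.30 CPM per kilobase, and in both treated total-RNA groups it was 7th, at 19.1 and 17.1, having exchanged places with Slc8a1.

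**Figure D4:**
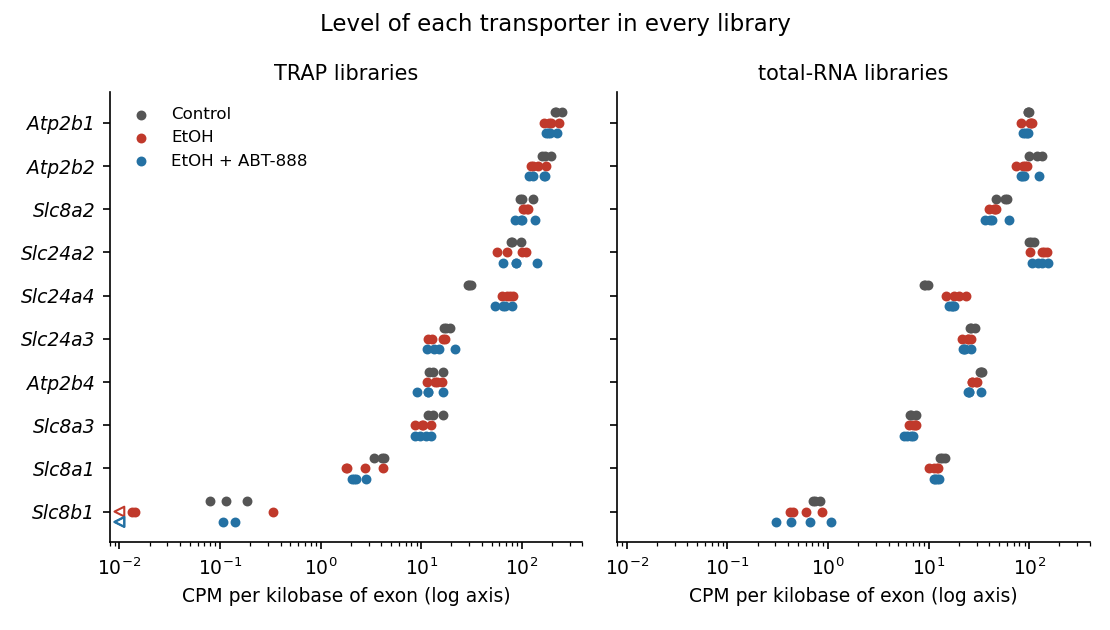
Level of each transporter in CPM per kilobase of exon (x axis, logarithmic) in all 22 libraries, split into TRAP (left) and total-RNA (right) and coloured by treatment. Points are libraries, and open triangles at the left edge mark libraries with 0 reads. Slc24a4 moves from about 30.2 in Control_TRAP to 73.4 in EtOH_TRAP, next to Slc24a2. With EtOH in total-RNA, Slc8a1, Slc8a2, Atp2b2 and Atp2b4 lie wholly below Control, and the members other than these and Slc24a4 overlap it. How many of all genes lie apart in this way was not counted.

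Of the 9 members tested against Control, Slc24a4 being left out because it was chosen on these contrasts, Atp2b2 was the one to pass. In total-RNA it had 1502, 1680 and 1253 CPM in Control and 923, 1140, 1096 and 1199 CPM in EtOH. All 4 EtOH libraries were below the lowest Control library, by a small margin for mouse 9. Atp2b2 fell by 0.44 on the log2 scale (SE 0.12, adjusted p = 0.0276, edgeR's quasi-likelihood test), in a comparison in which 17.6% of all genes were called. Without Control mouse 1 or mouse 4 its adjusted p was over the threshold and reached 0.150, and when all 22 libraries were fitted together it was 0.201. With EtOH + ABT-888 the 4 libraries had 1574, 1044, 1117 and 1071 CPM, of which mouse 3 was within the Control range, and the log2 fold change was -0.30 (adjusted p = 0.384). Without mouse 3 it was -0.45 (adjusted p = 0.0480). In TRAP the means of Atp2b2 were 2220 ± 229 CPM (SD, n = 3), 1810 ± 277 (n = 4) and 1840 ± 324 (n = 4), with overlapping groups and adjusted p of 0.279 and 0.545.

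Atp2b4 in total-RNA was at 400 to 416 CPM in Control, 327 to 369 in EtOH and 305 to 410 in EtOH + ABT-888, and the adjusted p were 0.0971 and 0.264. Atp2b1 was at 1490 ± 22.8 CPM in Control, 1500 ± 162 in EtOH and 1410 ± 77.6 in EtOH + ABT-888 in total-RNA, and at 3460 ± 300, 2980 ± 450 and 2930 ± 327 CPM in TRAP. None of these differences passed the test, and the libraries of Atp2b1 overlapped Control in each comparison.

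Counted over the 4 comparisons with Control, the members past the threshold were Slc24a4 alone with EtOH in TRAP (5.24% of all genes called), Slc24a4 alone with EtOH + ABT-888 in TRAP (0.476%), Slc24a4 and Atp2b2 with EtOH in total-RNA (17.6%), and Slc24a4 alone with EtOH + ABT-888 in total-RNA (0.263%). Nothing is read from the part of Slc24a4 in these counts, since it was chosen by them. Of the other 9 members, edgeR called 0, 0, 1 and 0, and 1, 1, 5 and 2 had an unadjusted p under 0.05, as did 3249, 1696, 4774 and 2243 of the 14072 genes tested. DESeq2 and exactTest each called 0, 1, 2 and 0 of the 9, the single call in TRAP being Slc8a1 and the 2 in total-RNA Slc8a2 and Atp2b2. With EtOH in total-RNA the libraries of Slc8a1, Slc8a2, Atp2b2 and Atp2b4 lay wholly below Control. With EtOH + ABT-888 those of Slc8a1 did in both pools. In every other case the libraries of the 9 overlapped Control. How many of all genes tested lay apart in this way was not counted, so nothing is read from these separations. The median log2 fold change of all 10 members was -0.23, -0.21, -0.19 and -0.20 in the same order, beside 0.02, 0.02, 0.00 and 0.00 over all genes tested.

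**Figure D5:**
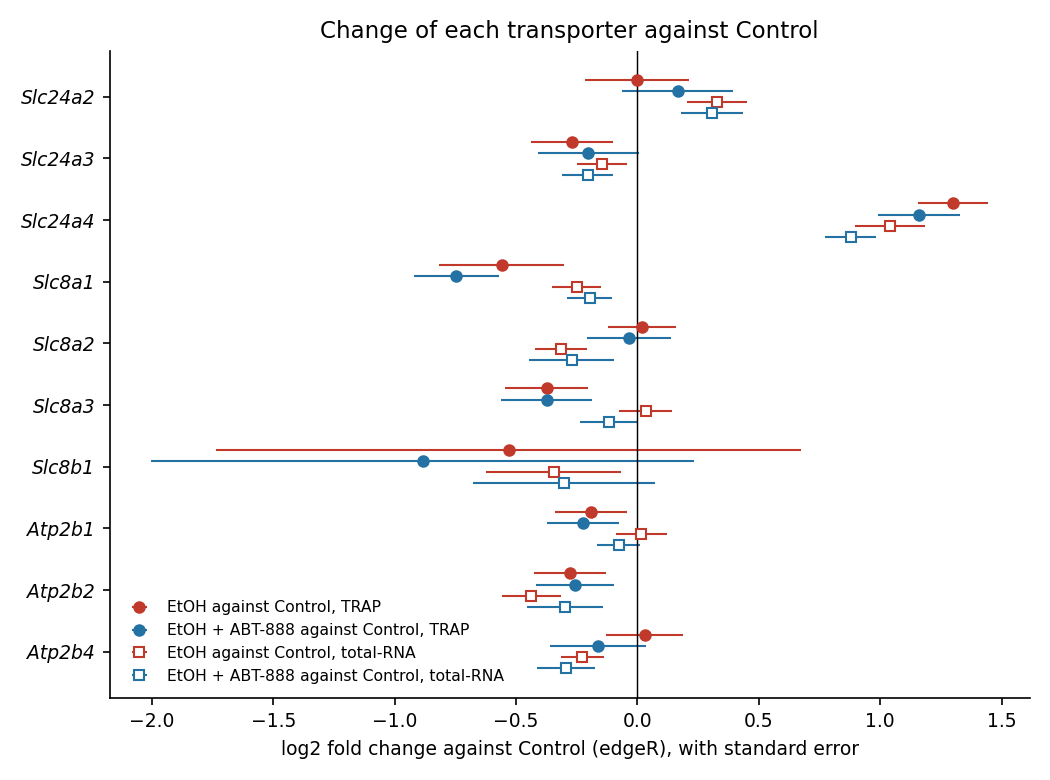
Log2 fold change against Control (x axis, edgeR) of each transporter (y axis) for EtOH (red) and EtOH + ABT-888 (blue), in TRAP (filled circles) and total-RNA (open squares). Lines are standard errors, and all comparisons of 1 pool share 3 Control libraries. Slc24a4 lies between 0.88 and 1.30, while Atp2b2 in total-RNA with EtOH (-0.44) is the one difference past the threshold among the other 9.

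The rest of the calcium handling machinery was followed through lists grouped by role. Of 7 genes of mitochondrial calcium uptake, 5 of store-operated entry, 8 of calmodulin and calcium buffers and 2 auxiliary subunits of the PMCA, 0 passed edgeR's test in any of the 4 comparisons with Control. Among 6 calcium release channels of the endoplasmic reticulum, Ryr1, a ryanodine receptor, fell with EtOH in TRAP from 23.8 to 8.49 CPM (-1.47, SE 0.35, adjusted p = 0.0344) and in total-RNA from 14.4 to 5.89 CPM (-1.29, SE 0.15, adjusted p = 0.000384). Itpr1, the main inositol trisphosphate receptor of neurons, fell with EtOH in total-RNA (-0.36, SE 0.10, adjusted p = 0.0281). With EtOH + ABT-888, 0 of the 6 passed in either pool, where 0.476% of all genes in TRAP and 0.263% in total-RNA were called, against 5.24% and 17.6% with EtOH. Ryr1 then had a log2 fold change of -0.92 (SE 0.39) in TRAP and -0.86 (SE 0.24) in total-RNA. Its exons share 864 bases with Gm26604 on the opposite strand, so its reads are less certain while the strand setting is unknown.

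Of 4 tested calcium pumps of the endoplasmic reticulum and Golgi, Atp2c1, which loads the Golgi with calcium and manganese, fell with EtOH from 216 to 117 CPM in TRAP (-0.86, SE 0.19, adjusted p = 0.0255) and from 209 to 125 CPM in total-RNA (-0.74, SE 0.16, adjusted p = 0.0106). Its paralog Atp2c2 rose with EtOH in total-RNA (2.39, SE 0.38, adjusted p = 0.0019), at means of 0.396 and 2.05 CPM. With EtOH + ABT-888 the means of Atp2c1 were 148 CPM in TRAP and 147 CPM in total-RNA, and 0 of the 4 pumps passed, beside the same small shares of all genes. Exons of Atp2c1 share 1837 bases with Aste1 on the opposite strand, so its reads are less certain too. Between TRAP and total-RNA in Control, where 29.5% of all genes were called higher and 30.4% lower, mitochondrial uptake genes were higher in TRAP for 5 of 7 and lower for 0, subunits of the sodium pump, which maintains the gradient that the exchangers use, higher for 1 and lower for 3 of 6, release channels higher for 3 and lower for 2 of 6, and calmodulin and buffers higher for 4 and lower for 3 of 8. Store-operated entry genes were higher for 3 and lower for 1 of 5, pumps of the endoplasmic reticulum and Golgi higher for 1 and lower for 1 of 4, and auxiliary subunits of the PMCA higher for 1 and lower for 0 of 2.

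The genes whose log2 CPM ran most nearly parallel to Slc24a4 over the 22 libraries, out of 14071 others, were Abcg1, a sterol transporter (Pearson's r = 0.984), Clip4 (0.976), Ptcd1 (0.974), Nt5e, the ectonucleotidase that forms adenosine (0.972), and Pcgf2, a Polycomb component (0.969). Those that ran most nearly opposite were Neurod6 (-0.974), Psd2 (-0.970), Dpy19l1 (-0.966), C1ql3 (-0.963) and 1190002N15Rik (-0.960). The libraries form clusters by pool and treatment, share mice and differ in depth, so r mainly describes those steps. Within the 11 TRAP libraries alone r lay between 0.886 and 0.940 for the first 5 genes and between -0.891 and -0.818 for the last 5, and within total-RNA between 0.822 and 0.946 and between -0.924 and -0.792. Abcg1 went from 128 CPM in Control_TRAP to 186 in EtOH_TRAP and 177 in EtOH + ABT-888_TRAP, and Nt5e from 42.4 to 93.7 and 79.7. The other 9 members had r between -0.921 (Slc8a1) and 0.806 (Atp2b1) over the 22 libraries, between -0.677 and 0.252 within TRAP and between -0.748 and 0.671 within total-RNA.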

How the data were processed

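RNA of the PFC was measured in 11 mice as TRAP and total-RNA libraries. The authors depleted ribosomal RNA, made CORALL libraries, aligned the reads to mm10 with STAR and deposited raw counts from featureCounts with an ENSEMBL annotation. Versions, strand setting and treatment of multiply mapped reads are not given in the sources used here. Depth was 6570957 to 22002618 counted reads per TRAP library and 22132534 to 32421392 per total-RNA library, so Slc8b1 is imprecise in TRAP.

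The members, the gene lists and the tests were chosen with earlier results of these data known. Gene names, positions and exon lengths came from GENCODE M21, in which 38872 of the 39056 genes were found. Genes with under 500 counts in all or present in fewer than 3 libraries were left out, which kept 14072. Counts were tested in R 4.3.3 with edgeR 4.0.16 (TMM factors, quasi-likelihood test, Benjamini-Hochberg adjustment over all genes tested, threshold 0.05), fitted to the groups compared, the interactions over all 22 libraries, and the scripts were tested on simulated data. Standard errors are the log2 fold change divided by the root of the F statistic, and 95% intervals are a normal approximation from them. Log2 CPM used a prior count of 1. The alternatives were DESeq2 1.42.0, RLE factors, no filter, filterByExpr, exactTest (the pairwise test of the study), a single fit, an adjusted p under 0.01, the likelihood ratio test for interactions, the mouse as replicate block and leaving out each library. TRAP and total-RNA libraries with 1 number come from 1 mouse, and the deviations of all 11 pairs correlated, at r of 0.102 to 0.622. Genes named are the members, and, by rule, list genes past the threshold in a comparison with Control (up to 3 per list), their family relatives and the 5 genes most and least like Slc24a4. Some results on list genes are not reported here. Upstream sequences came from RefSeq on GRCm38.p6.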

Additional observations from a re-analysis of the deposited data

Results flagged for a closer look

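Of 40 sets of 4 libraries checked, each a member in a treated group, 2 held a library that stood apart from the other 3 by Dixon's criterion on log2 CPM, which chance alone meets in about 1 set in 20. On the CPM scale itself, a choice made after seeing the data, 3 sets did, the third being Slc8b1 in EtOH_TRAP, with 16 reads in mouse 2 against 1, 1 and 0. Both sets on the log2 scale were mouse 3 in EtOH + ABT-888_total-RNA. Atp2b2 was at 1570 CPM there, against 1044, 1117 and 1071 CPM in the other mice of the group. Atp2b4 was at 410 CPM there, with a group mean of 333 ± 51.8 CPM (SD, n = 4) and a median of 307 CPM.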

How the results depend on the processing

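No difference that passed the test changed direction under any alternative run. The members past the threshold were 1 of 10 with EtOH in TRAP, 1 with EtOH + ABT-888 in TRAP, 2 with EtOH in total-RNA and 1 with EtOH + ABT-888 in total-RNA, and these counts include Slc24a4, which was chosen by these contrasts. An adjusted p under 0.01 gave 0, 1 and 0 in the last 3. DESeq2, no filter on low counts, exactTest and a single fit each gave 2 with EtOH + ABT-888 in TRAP, and for EtOH in total-RNA no filter gave 4 and a single fit 1. Leaving out 1 library gave 1 to 2, 0 to 1, 1 to 3 and 0 to 4 in the same order, 9 to 10, 9 to 10 and 7 to 10 for TRAP against total-RNA in Control, EtOH and EtOH + ABT-888, and 0 throughout elsewhere. A single fit over the 22 libraries gave 9 for TRAP against total-RNA in Control, without Slc24a2. The 2 came without EtOH_TRAP mouse 9 (Slc8a1 added) and the 4 without EtOH + ABT-888_total-RNA mouse 3 (Atp2b2, Atp2b4 and Slc8a2 added). The 0 with EtOH + ABT-888 came in both pools without Control mouse 1, 4 or 7 or without mouse 6 or 11. The log2 fold change of Slc24a4, a description with no test, was 1.06 to 1.26 in TRAP and 0.85 to 0.92 in total-RNA over those fits and the remaining ones. The causes were not tested. The mouse as replicate block gave 10 of 10 members for TRAP against total-RNA in each treatment and 0 for both interactions, and it changed no other call among the members than that of Slc24a2. Depth limits Slc8b1, at 0 to 16 reads per TRAP library.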
